A study of Mus musculus with 12 samples.

Results

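The genes described here are those of cholesterol and fatty acid synthesis and their control, 37 genes chosen by name from the enzymes of the mevalonate and sterol pathway, the SREBP machinery, the LXR receptors with sterol transport genes, and the enzymes that make, desaturate and elongate fatty acids. Of the 37, 36 were found among 37991 genes of the deposited counts, and all 36 passed the filter on low counts that left 13538 genes for testing. Hmgcs1 had no identifier in the annotation used, and its expression was not analysed here. RNA was sequenced from resting B cells, taken from mouse spleen by negative selection, of 8-week-old mice of both genotypes. Cre-only mice carry a Cre transgene driven by the CD23 promoter, CD23-iCre. Runx1 c-k/o mice, called knockout here, carry the same transgene together with Runx1 alleles whose exon 4 is flanked by LoxP sites, so that the exon is removed from the transitional B cell stage onwards. The cells were lysed at rest (0 h) or after 3 h with anti-IgM, which engages the B cell receptor, and IL-4, a cytokine that acts with it. No group was kept for 3 h without anti-IgM and IL-4, so the stimulus and the time in culture cannot be told apart. Activation below means the whole change from rest to 3 h. Each of the 4 groups holds 3 replicates. The labels do not say whether these came from separate mice, so the p-values measure the spread between these samples.

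Cholesterol is built from acetyl-CoA through mevalonate, isoprenoids and squalene, and fatty acids are built from malonyl-CoA by fatty acid synthase. The transcription factors SREBP1 and SREBP2, encoded by Srebf1 and Srebf2, switch on both sets of enzymes when membrane sterol is low. They are escorted from the endoplasmic reticulum by SCAP, and INSIG1 and INSIG2 hold them there when sterol is plentiful. The LXR receptors, encoded by Nr1h2 and Nr1h3, sense oxysterols and switch on genes that export cholesterol, among them Abca1 and Abcg1, and Mylip, whose product marks lipoprotein receptors for degradation. Lymphocytes that prepare to divide need new membrane, and these genes are known to respond when lymphocytes are activated.

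The gene counts summed to between 14442251 and 23641552 per sample. Values below are normalised CPM, a gene's count relative to the total of its sample, with totals adjusted by edgeR's TMM factors. The smallest level that 3 counts can show lay between 0.127 and 0.208 CPM before scaling, a floor that covers counting error only. All 8 B cell markers looked up were tested, and their summed level was 9549 to 10519 CPM at rest and 5287 to 5978 CPM at 3 h. The 10 macrophage and monocyte markers were detected too, at a summed level of 491 to 1045 CPM at rest and 25.6 to 105 CPM at 3 h, with none at 0. Plasma cell markers summed to 1468 to 1613 CPM at rest and T cell markers to 30.3 to 43.0 CPM. Erythroid markers summed to 36.1 to 253 CPM in resting Cre-only and 246 to 410 CPM in resting knockout samples. Dendritic cell markers reached 38.2 CPM at most, and neutrophil, NK cell and platelet markers 4.53, 11.3 and 14.3 CPM. Runx1 itself was not lower in the knockout libraries. It was at 83.6, 81.8 and 86.7 CPM in resting Cre-only and at 101, 95.7 and 103 CPM in resting knockout samples, and the counts cover all its exons without separating exon 4, so they do not check the deletion. At 3 h Runx1 was higher in the knockout cells (log2 0.80, edgeR adjusted p = 0.00769). Replicate 2 of the resting knockout cells lay above the other 5 resting samples in 41.1% of tested genes and below them in 25.8%, against 9.76% to 13.1% and 12.3% to 18.6% for each of those 5. Replicate 1 of the 3-h knockout cells lay above the other 5 samples of that time in 33.7% of genes and below them in 33.1%. The genotype differences that rest on these samples are given with and without them, as are the knockout rises that they moved by over 1.5 times.

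The promoters of the genes with large responses are shown first, to let the sequences stand beside the values. RefSeq promoter windows, from 250 bases before to 50 bases after each start on GRCm38.p6, were found for 29 of the 37 genes, while the counts were made on mm9. No entry was found for Fdps, Fdft1, Sqle, Stard4, Abcg1, Scd1, Scd2 and Fads1. The 250 bases before the start are printed for Idi1, Lss, Cyp51 and Fasn, which rose strongly on activation, and for Abca1 and Mylip, which fell. Capitals mark CCAAT, the core bound by NF-Y, on either strand.
Idi1 (chr13:8885356-8885605, plus strand): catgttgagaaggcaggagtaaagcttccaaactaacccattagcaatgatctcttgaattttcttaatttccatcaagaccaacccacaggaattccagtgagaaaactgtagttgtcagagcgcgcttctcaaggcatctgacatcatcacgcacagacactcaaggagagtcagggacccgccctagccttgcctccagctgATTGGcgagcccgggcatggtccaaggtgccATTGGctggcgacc
Lss (chr10:76531355-76531604, plus strand): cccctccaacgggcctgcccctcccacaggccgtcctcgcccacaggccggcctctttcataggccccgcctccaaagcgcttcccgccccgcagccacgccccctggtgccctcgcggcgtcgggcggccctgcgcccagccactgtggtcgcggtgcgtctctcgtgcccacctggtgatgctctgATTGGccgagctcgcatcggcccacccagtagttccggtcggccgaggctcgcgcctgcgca
Cyp51 (chr5:4104698-4104947, minus strand): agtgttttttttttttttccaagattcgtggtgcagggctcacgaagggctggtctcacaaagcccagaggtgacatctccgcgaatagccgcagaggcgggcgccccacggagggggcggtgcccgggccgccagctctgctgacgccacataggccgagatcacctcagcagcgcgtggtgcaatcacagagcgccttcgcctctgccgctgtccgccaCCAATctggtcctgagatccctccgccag
Fasn (chr11:120824548-120824797, minus strand): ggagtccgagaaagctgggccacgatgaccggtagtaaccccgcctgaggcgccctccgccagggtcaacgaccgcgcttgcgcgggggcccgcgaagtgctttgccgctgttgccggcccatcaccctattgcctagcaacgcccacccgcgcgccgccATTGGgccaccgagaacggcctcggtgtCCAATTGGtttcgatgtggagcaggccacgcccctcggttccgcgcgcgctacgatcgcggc
Abca1 (chr4:53159896-53160145, minus strand): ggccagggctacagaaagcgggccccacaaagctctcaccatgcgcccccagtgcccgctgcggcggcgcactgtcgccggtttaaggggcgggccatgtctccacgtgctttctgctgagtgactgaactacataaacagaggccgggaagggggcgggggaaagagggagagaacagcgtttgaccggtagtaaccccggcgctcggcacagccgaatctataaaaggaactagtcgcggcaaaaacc
Mylip (chr13:45389492-45389741, plus strand): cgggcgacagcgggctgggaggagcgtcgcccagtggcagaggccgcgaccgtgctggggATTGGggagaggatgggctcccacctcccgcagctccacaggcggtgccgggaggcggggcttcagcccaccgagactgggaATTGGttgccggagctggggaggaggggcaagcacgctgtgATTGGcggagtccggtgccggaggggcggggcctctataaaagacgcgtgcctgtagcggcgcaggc
CCAAT occurred in the full windows of 21 of the 29 genes (72.4%), against 43.1% of the 8817 tested genes with a window and 41.1% of all 27025 genes with one. All 7 squalene-to-cholesterol genes with a window and 5 of the 6 mevalonate genes held it, but only 1 of the 4 genes of sterol transport and LXR, Mylip. In Idi1 its first base lay 45 and 14 bases before the start, in Lss 62 and in Cyp51 29. GGGCGG, the core bound by SP1, was found for 22 genes (75.9%, against 67.4% of tested genes), and 18 genes held both (62.1%, against 29.5% of tested genes). A gene with several windows counted if any of them held the motif. The 2 motifs therefore need not share a window, and in Insig2 they did not. CACGTG, an E-box, was in 6 (20.7% against 12.1%). The core of the RUNX site, TGTGGT, was in 4 of the 29, those of Lss, Acaca, Acly and Elovl5 (13.8%, against 15.8% of tested genes). A form of the sterol regulatory element, TCACNCCAC, was found once, in Hmgcs1 (3.45% of the 29, against 1.32% of tested genes). CACCCCAC, which overlaps it, was in Hmgcs1 and Acat2 (6.90% against 3.77% of tested genes). All motifs were searched on both strands, and a match only says that the letters are there.

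Activation raised almost the whole synthesis pathway within 3 h. In Cre-only cells 29 of the 36 genes rose (80.6%, where 38.6% of all tested genes rose) and 4 fell (11.1%, where 36.4% of all tested genes fell), at an adjusted p under 0.05 in edgeR's quasi-likelihood test, with p-values adjusted by Benjamini-Hochberg across the whole table. In knockout cells, which are separate samples, the same 29 rose and the same 4 fell, where 37.7% of all tested genes rose and 36.6% fell. The median log2 fold change of the 36 genes was 1.08 in Cre-only and 1.03 in knockout cells, against 0.03 and 0.00 over all tested genes. Tm7sf2, Nr1h2 and Elovl6 passed the test in neither genotype. Fold sizes depended on the fit. With 1 factor of unwanted variation (RUVs) 12 of the 36 moved by over 1.5 times in Cre-only cells, 11 of them towards 0. Against the values given below, the rises were then 15.5-fold for Idi1, 8.49-fold for Sqle, 6.68-fold for Cyp51 and 4.13-fold for Fdps. Abca1 was 4.56-fold lower, while the fall of Nr1h3 came to 24.3-fold. The factor was 0.981 to 1.07 in the resting samples other than knockout replicate 2. In that sample it was 0.0341, and in the 3-h samples it was -1.99 to -0.573. It thus followed the time point, and this fit cannot fully separate it from activation. In knockout cells the fit with this factor moved 12 as well, and leaving out resting replicate 2 moved 6, all to larger rises. These were 26.2-fold for Idi1, 21.9-fold for Sqle, 17.6-fold for Fdps, 14.9-fold for Cyp51, 13.9-fold for Fdft1 and 9.21-fold for Fads2. The last value rests on 1 count of Fads2 in each remaining resting knockout sample, and with all samples it was 5.67-fold. The rise was over 2-fold in 20 of the genes in Cre-only cells, a size of rise seen in 20.4% of all tested genes, and the 4 falls were all over 2-fold, as in 24.7% of all tested genes.

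**Figure D1:**
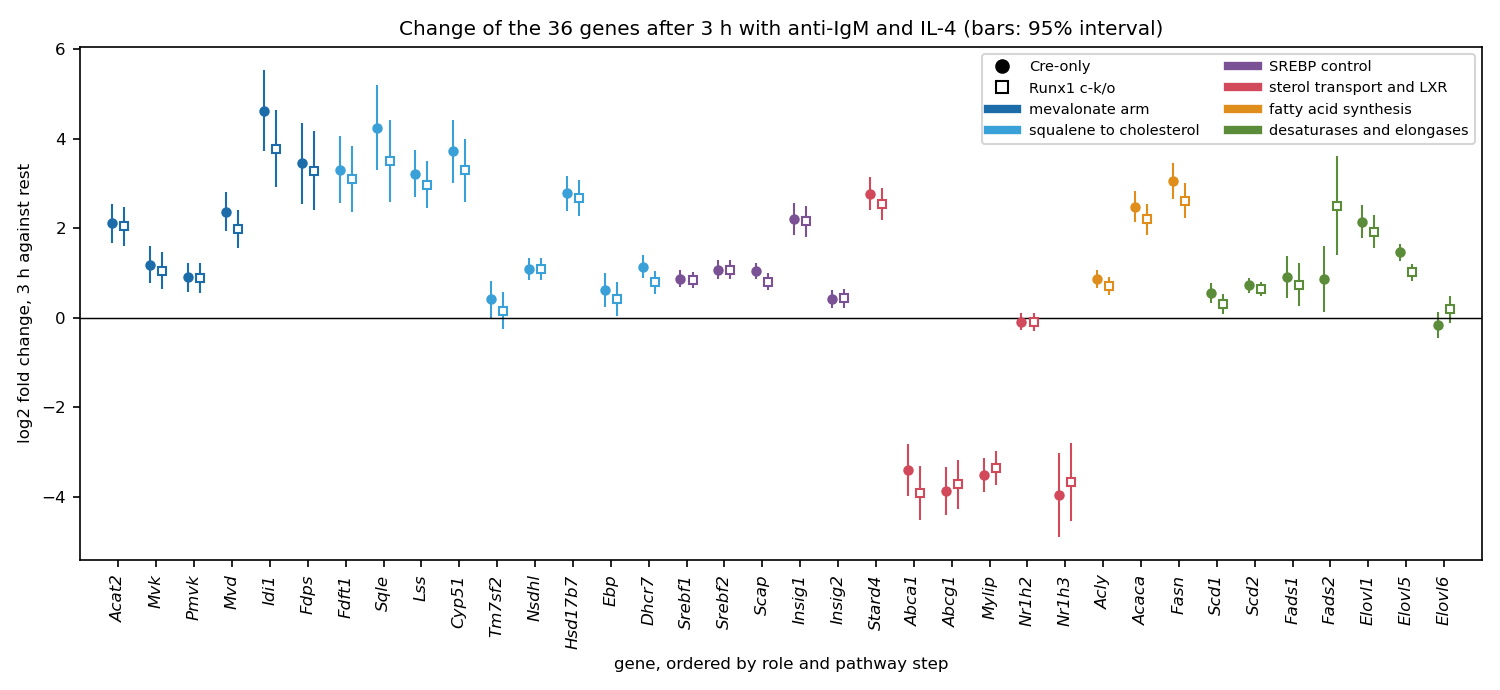
Log2 fold change between 3 h and rest for the 36 genes, with filled circles for Cre-only cells, open squares for knockout cells and bars for the 95% interval of the edgeR fit. The largest rises run from Idi1 to Cyp51 in the middle of the sterol pathway (4.63 for Idi1 in Cre-only cells). The plotted enzymes nearer its end rise less, and Abca1, Abcg1, Mylip and Nr1h3 lie between -3.95 and -3.36.

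In the mevalonate arm all 6 genes measured rose in both genotypes. Idi1 encodes isopentenyl-diphosphate isomerase, which makes the allylic starter for isoprenoid chains. It lies on chromosome 13 of mm9 from 8884852 to 8891641. It was at 5.83, 6.95 and 7.44 CPM in resting Cre-only samples and at 161, 163 and 175 CPM after 3 h. In knockout cells Idi1 was at 5.97, 22.3 and 6.04 CPM at rest and at 154, 147 and 168 CPM after 3 h. The groups of rest and 3 h were far apart in both genotypes, and replicate 2 of the resting knockout cells was the one high resting value. The rise was 24.7-fold in Cre-only (log2 4.63, SE 0.414, edgeR adjusted p = 7.15e-07), the largest among the 36 genes and number 38 of the 13538 tested genes. Idi1, Sqle and Cyp51 are described in full for the size of their change, after their values were seen.

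Fdps, which joins isoprenoid units to farnesyl diphosphate, was at 14.1, 16.2 and 15.6 CPM in resting and at 159.8, 159.9 and 181 CPM in 3-h Cre-only samples, and at 12.1, 42.9 and 13.1 CPM in resting and 298, 187 and 178 CPM in 3-h knockout samples. Replicate 2 was again the high sample at rest, and replicate 1 the high sample at 3 h. Mvk, mevalonate kinase, was at 6.75, 6.15 and 6.45 CPM in resting and 14.5, 13.2 and 16.4 CPM in 3-h Cre-only samples. In knockout cells Mvk was at 6.21, 10.9 and 7.30 CPM at rest and at 20.2, 15.2 and 15.02 CPM at 3 h. The rises in Cre-only cells were 10.9-fold for Fdps (log2 3.45, SE 0.413, edgeR adjusted p = 8.82e-06) and 2.28-fold for Mvk (log2 1.19, SE 0.194). Mvd, which makes isopentenyl diphosphate, rose 5.17-fold, Acat2, the cytosolic thiolase that feeds the arm with acetoacetyl-CoA, 4.32-fold, and Pmvk, phosphomevalonate kinase, 1.87-fold.

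From squalene to cholesterol, 8 of the 9 genes rose in both genotypes. Sqle, squalene epoxidase and a rate-limiting step, was at 13.97, 17.0 and 14.8 CPM in resting and 282, 299.8 and 286 CPM in 3-h Cre-only samples. In knockout cells Sqle was at 13.0, 50.03 and 13.5 CPM at rest and at 329, 259 and 279.9 CPM at 3 h. Its rise was 19.0-fold in Cre-only (log2 4.25, SE 0.434, edgeR adjusted p = 2.25e-06) and 11.4-fold in knockout cells, or 21.9-fold without the high resting replicate 2. Cyp51, lanosterol demethylase, was at 29.0, 39.3 and 37.6 CPM in resting and 443, 489 and 459 CPM in 3-h Cre-only samples, and at 31.3, 83.9 and 34.6 CPM and 565, 435 and 464 CPM in those of the knockout. The order of samples was that of Sqle, with resting replicate 2 and 3-h replicate 1 high in the knockout. Cyp51 rose 13.1-fold in Cre-only cells (log2 3.72, SE 0.325, edgeR adjusted p = 5.94e-07).

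Fdft1, squalene synthase, rose 9.93-fold and Lss, lanosterol synthase, 9.31-fold in Cre-only cells. Fdft1 shares 769 exon bases with Ctsb, a cathepsin gene on the opposite strand, and the strand setting of the counting is not given in the sources used here, so reads of this stretch cannot be told apart. Of the genes of this group, those nearer the end of the pathway rose less: 6.87-fold for Hsd17b7, 2.21-fold for Dhcr7, 2.11-fold for Nsdhl and 1.54-fold for Ebp. Other enzymes of the last steps are not in this group. Nsdhl, a sterol dehydrogenase, was at 14.4, 13.8 and 13.2 CPM in resting and 29.0, 28.8 and 29.7 CPM in 3-h Cre-only samples, and at 13.4, 17.6 and 13.5 CPM and then 33.5, 28.9 and 32.4 CPM in knockout samples. Its samples at rest and at 3 h did not overlap in either genotype. The rise of Ebp, sterol isomerase, is the least secure of these. Its log2 fold change was 0.63 in Cre-only and 0.41 in knockout cells (edgeR adjusted p = 0.0473), the latter passed in 3 of 13 other analyses with adjusted p from 0.00804 to 0.216, and both values fell to -0.02 and -0.26 with 1 factor of unwanted variation in the fit. Tm7sf2, a sterol reductase, had a log2 fold change of 0.41 in Cre-only cells (95% interval 0.00 to 0.82, edgeR adjusted p = 0.0643) and of 0.16 in knockout cells, and shares 532 exon bases with another gene on its own strand.

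**Figure D2:**
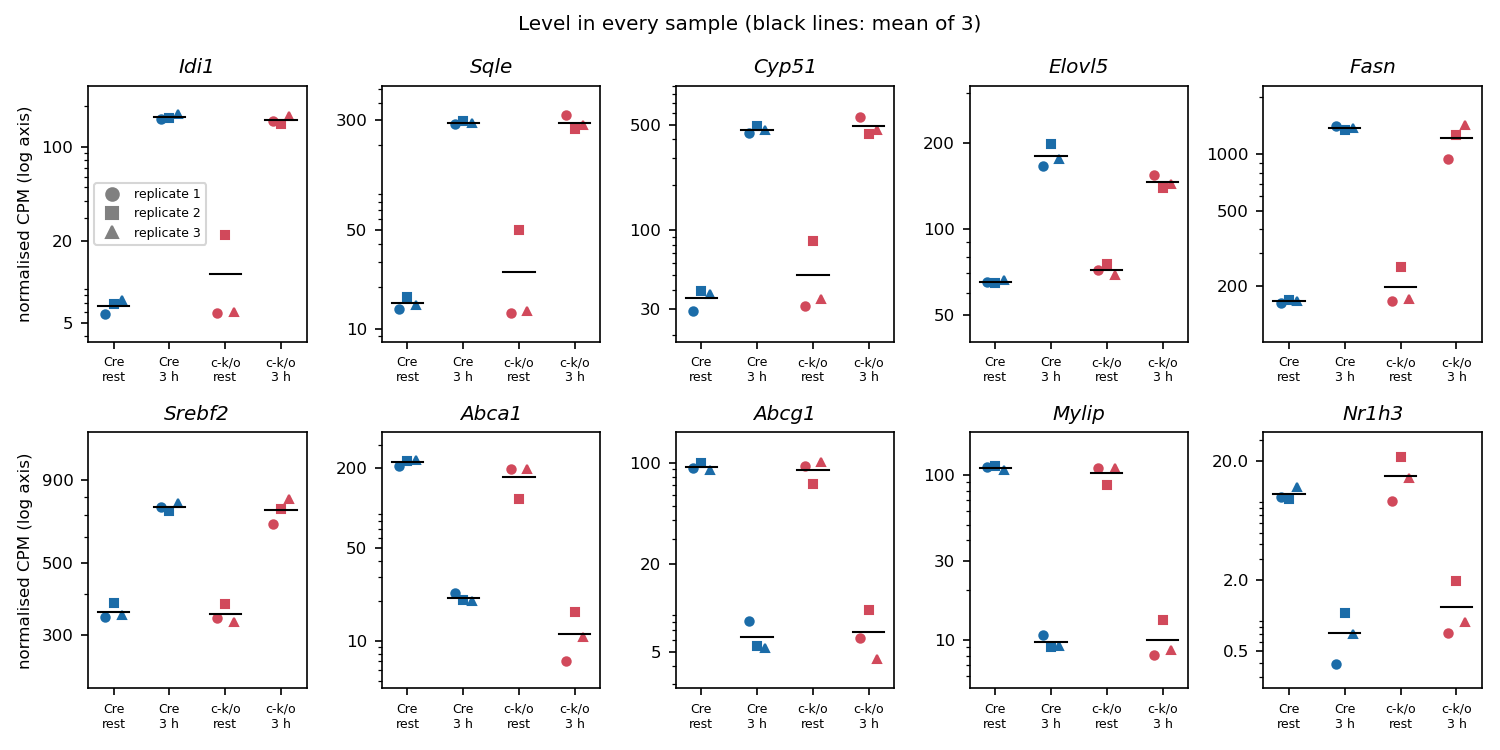
Normalised CPM of 10 genes in each of the 12 samples on log axes, blue for Cre-only and red for knockout cells, with the marker giving the replicate and the black line the mean of 3. Rest and 3 h do not overlap in any of the 10 genes, and the square of resting knockout replicate 2 stands above the other resting samples for Idi1, Sqle, Cyp51 and Fasn and below them for Abca1, Abcg1 and Mylip.

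The SREBP machinery rose as well, in all 5 genes and both genotypes. In Cre-only cells its median log2 rise was 1.04. The medians were 2.24 in the mevalonate arm, 2.78 from squalene to cholesterol and 2.48 in fatty acid synthesis. For desaturases and elongases the median was lower, at 0.87. Insig1 rose most of the 5, by a log2 value of 2.20. Srebf2, the sterol-directed SREBP, was at 353 ± 18.5 CPM in resting and 744 ± 20.2 CPM in 3-h Cre-only cells (SD, n = 3 each), a rise of 2.10-fold (log2 1.07, SE 0.0969). Srebf1 rose 1.84-fold and Scap 2.06-fold. Of the retention factors, Insig1 rose 4.61-fold and Insig2 1.34-fold in Cre-only cells. Scap was at 65.8, 61.0 and 62.9 CPM at rest and 132, 126 and 133 CPM at 3 h in Cre-only samples, and at 68.6, 73.9 and 62.9 CPM and then 128, 109.8 and 121 CPM in knockout samples. Insig2 was at 14.6, 16.0002 and 14.1 CPM and then 19.5, 21.0 and 19.4 CPM in Cre-only samples, and at 13.2, 14.2 and 14.3 CPM and then 19.2, 17.5 and 19.6 CPM in knockout samples. For both genes the 3-h samples lay above all resting samples, while the genotypes overlapped.

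Sterol transport and LXR genes went the other way. Of these 6 genes, 4 fell in both genotypes, 1 rose and 1 passed in neither. Abca1, the exporter that loads cholesterol onto apolipoprotein A-I, lies on chromosome 4 from 53043659 to 53172767 in mm9. It was at 209, 225 and 232 CPM in resting and 22.9, 20.4 and 19.9 CPM in 3-h Cre-only samples, and at 198, 117 and 198 CPM in resting and 7.02, 16.4 and 10.6 CPM in 3-h knockout samples. Abcg1, which exports cholesterol to high-density lipoprotein, was at 91.7, 99.3 and 88.4 CPM and then 8.07, 5.49 and 5.29 CPM in Cre-only, and at 95.2, 71.9 and 101 CPM and then 6.18, 9.71 and 4.48 CPM in knockout samples. Every resting sample lay far above every 3-h sample for both exporters, and resting knockout replicate 2 was the lowest at rest. The falls in Cre-only cells were 10.5-fold for Abca1 (log2 -3.40, SE 0.265, edgeR adjusted p = 2.30e-07) and 14.6-fold for Abcg1 (log2 -3.87, SE 0.251, edgeR adjusted p = 6.03e-08).

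Mylip, the ubiquitin ligase that removes lipoprotein receptors, was at 111, 113 and 107 CPM at rest and 10.7, 9.01 and 9.11 CPM at 3 h in Cre-only samples, and at 110.3, 86.5 and 111 CPM and then 8.11, 13.3 and 8.66 CPM in knockout samples. It fell 11.4-fold in Cre-only cells (log2 -3.51, SE 0.175), with the smallest adjusted p of the 36 genes (edgeR adjusted p = 1.59e-08). Nr1h3, LXR alpha, was at 10.02, 9.62 and 12.1 CPM at rest and 0.388, 1.05 and 0.701 CPM at 3 h in Cre-only samples. In knockout samples Nr1h3 was at 9.20, 21.8 and 14.3 CPM at rest and at 0.708, 1.97 and 0.883 CPM at 3 h. Its fall was 15.5-fold in Cre-only (log2 -3.95, SE 0.430) and 12.7-fold in knockout cells. Nr1h2, LXR beta, was at 101, 104 and 113 CPM at rest and 97.9, 103 and 99.2 CPM at 3 h in Cre-only samples, a log2 difference of -0.08 (95% interval -0.28 to 0.11). So of the LXR genes the scarcer one fell and the abundant one did not pass the test. In bulk RNA, fewer cells of a type and less RNA per cell cannot be told apart. The summed macrophage and monocyte markers moved in the direction of these 4 genes, from 565 to 734 CPM in resting Cre-only samples to 25.6 to 35.99 CPM at 3 h, and among the 3-h samples they were highest in knockout replicate 2 (105 CPM), which also had the highest 3-h value of Abcg1, Mylip and Nr1h3. At rest they were highest in knockout replicate 2 (1045 CPM), where Nr1h3 was highest but Abca1, Abcg1 and Mylip lowest. Their part in the falls was not tested.

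Stard4 encodes a carrier that moves sterol between membranes inside the cell, and it rose with the enzymes. It was at 24.3, 29.2 and 25.2 CPM at rest and 169.8, 183 and 185 CPM at 3 h in Cre-only samples, and at 23.5, 36.3 and 22.2 CPM and then 151, 154 and 174 CPM in knockout samples. The groups of rest and 3 h did not overlap, and the rise was 6.84-fold in Cre-only cells (log2 2.77, SE 0.165, edgeR adjusted p = 3.61e-08).

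All 3 genes of fatty acid synthesis rose in both genotypes. Fasn, fatty acid synthase, was at 163, 169 and 168 CPM in resting and 1407, 1348 and 1383 CPM in 3-h Cre-only samples. In knockout cells Fasn was at 167, 254 and 172 CPM at rest and at 947, 1260.0 and 1435 CPM at 3 h. The knockout samples spread more than the controls at both times, with replicate 2 high at rest and replicate 1 low at 3 h. Fasn rose 8.28-fold in Cre-only (log2 3.05, SE 0.185, edgeR adjusted p = 3.88e-08) and 6.14-fold in knockout cells. Acaca, acetyl-CoA carboxylase 1, which makes malonyl-CoA, was at 51.9, 53.7 and 47.9 CPM and then 281, 284 and 294 CPM in Cre-only samples, and at 51.7, 61.5 and 51.0 CPM and then 188, 256 and 309 CPM in knockout samples. Acly, which supplies cytosolic acetyl-CoA from citrate, was at 279.6, 268 and 259 CPM and then 499, 475 and 497 CPM in Cre-only, and at 263, 278 and 283 CPM and then 399, 459 and 485 CPM in knockout samples. For both, replicate 1 was the lowest of the 3-h knockout samples, and all 3-h samples lay above all resting ones. The rises in Cre-only cells were 5.59-fold for Acaca (log2 2.48, SE 0.156, edgeR adjusted p = 4.81e-08) and 1.82-fold for Acly.

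Of the 7 desaturases and elongases 6 rose in both genotypes. Elovl5, an elongase of polyunsaturated fatty acids, was at 65.2, 64.6 and 66.4 CPM in resting and 167, 198 and 176 CPM in 3-h Cre-only samples. In knockout cells Elovl5 was at 71.8, 75.7 and 69.0 CPM at rest and at 155, 139 and 143 CPM at 3 h. The genotypes did not overlap at either time, with the knockout above the control at rest and below it at 3 h. Elovl5 rose 2.76-fold in Cre-only (log2 1.46, SE 0.0849, edgeR adjusted p = 2.98e-08) and 2.02-fold in knockout cells. Elovl1, which extends saturated chains, rose 4.43-fold in Cre-only cells, Scd2 1.65-fold and Fads1 1.88-fold. Scd1, the desaturase that makes oleate, rose 1.47-fold in Cre-only cells. In knockout cells its log2 rise of 0.30 (edgeR adjusted p = 0.0178) passed in 8 of 13 other analyses, with adjusted p from 0.00140 to 0.123. Fads2, the delta-6 desaturase, was near the floor, at 12, 6 and 9 counts in resting Cre-only and 1, 3 and 1 counts in resting knockout samples. Its log2 rise of 0.87 in Cre-only cells (edgeR adjusted p = 0.0360) passed in 4 of 12 other analyses, with adjusted p from 0.0335 to 0.480. Elovl6, which elongates palmitate, differed by a log2 value of -0.17 in Cre-only (95% interval -0.46 to 0.12) and 0.19 in knockout cells.

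Compared per length, as normalised CPM per kb of exon, Scd1 had the highest level of the 36 genes in all 4 groups. It was at 286 ± 16.8 in resting and 420.0 ± 19.9 CPM per kb in 3-h Cre-only cells (SD, n = 3 each). At rest it was followed by Srebf2 (70.8 ± 3.71), Acly (50.9 ± 1.95), Mylip (36.1 ± 1.05), Insig1 (33.2 ± 1.93) and Nr1h2 (31.5 ± 1.93). Insig1 and Nr1h2 differed by less than their SDs, while the steps from Scd1 to Srebf2, Acly and Mylip were larger than the SDs. By 3 h Mylip had moved from place 4 to place 29 and Abca1 from place 8 to place 30 in this order, while Idi1 had moved from place 31 to place 8 and Sqle from place 29 to place 9. Nr1h3 was the lowest of the 36 genes in 3-h Cre-only cells.

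**Figure D3:**
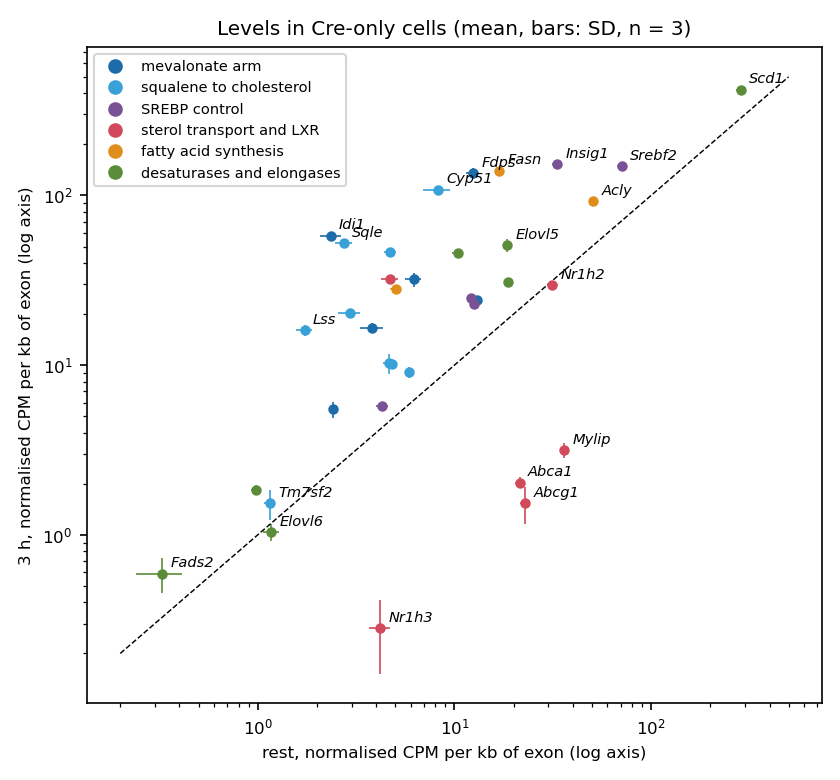
Level of each gene at rest (x axis) and at 3 h (y axis) in Cre-only cells as normalised CPM per kb of exon on log axes, mean and SD of 3 samples, with the dashed line where both are equal. Most enzymes lie above the line, Abca1, Abcg1, Mylip and Nr1h3 far below it, and Nr1h2, Tm7sf2 and Elovl6 close to it.

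Between the genotypes no gene of the 36 passed the test at either time. At rest 0 of 36 passed by edgeR (1.49% of all tested genes did) and 0 by DESeq2, with 4 at an unadjusted p under 0.05. At 3 h 0 of 36 passed by edgeR (2.77% of all tested genes did), with 4 at an unadjusted p under 0.05, and DESeq2 called 1, Abca1. The genotypes did not overlap for 6 of 36 genes at rest (16.7%, where 23.7% of all tested genes did so) and for 5 of 36 at 3 h (13.9%, where 21.8% of all tested genes did so). The difference of the 3-h change between genotypes passed in 0 of 36 genes by edgeR (0.0813% of all tested genes) and in 0 by DESeq2, with 2 at an unadjusted p under 0.05, Elovl5 and Fads2. The genotype comparison at rest, that at 3 h and the changes on activation draw on the same 12 samples.

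**Figure D4:**
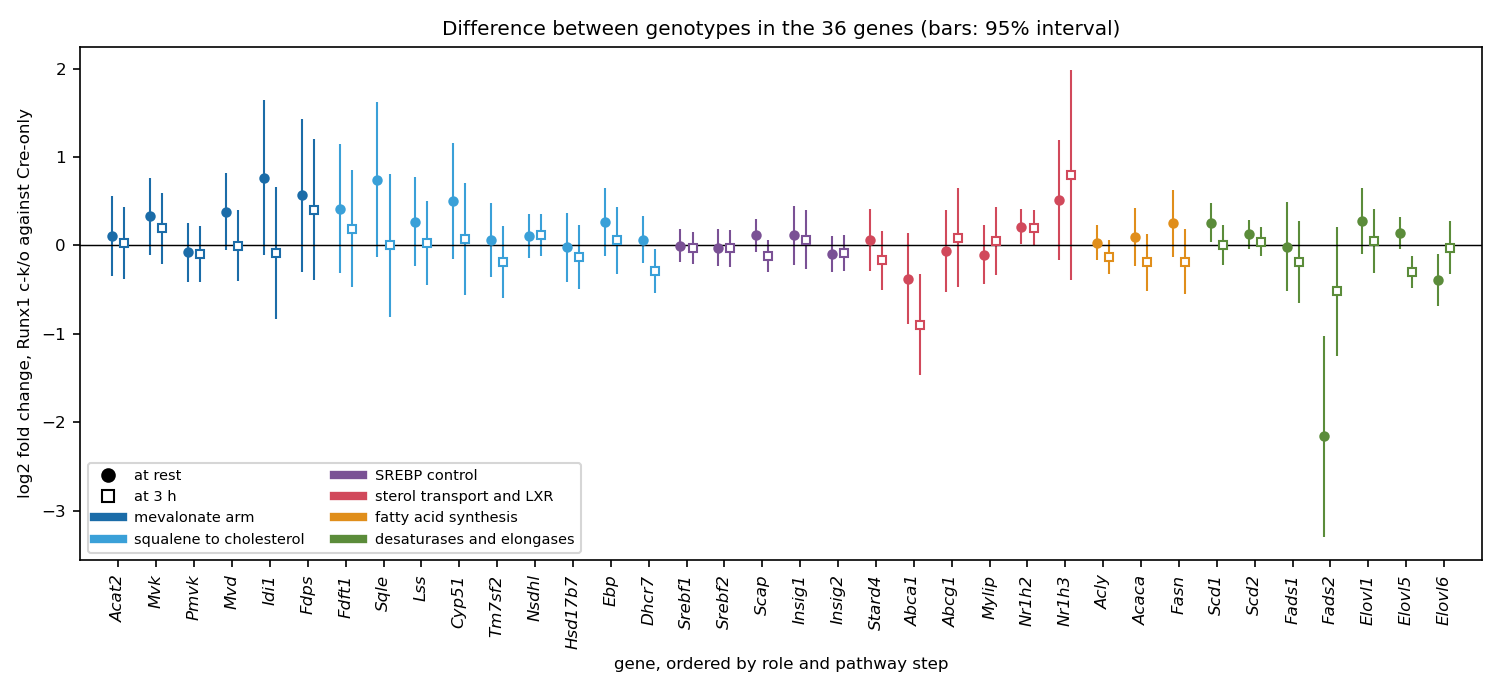
Log2 ratio of knockout to Cre-only cells for the 36 genes, with filled circles at rest, open squares at 3 h and bars for the 95% interval of the edgeR fit. Most intervals include 0, those of Abca1, Elovl5 and Dhcr7 at 3 h and of Fads2 and Elovl6 at rest lie below it, and those of Scd1 at rest and Nr1h2 at both times lie above it.

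For the control genes of the pathway the intervals were narrow. At 3 h the log2 difference was -0.03 for Srebf2 (95% interval -0.24 to 0.18), -0.03 for Srebf1 (95% interval -0.22 to 0.15) and 0.07 for Insig1 (95% interval -0.27 to 0.40). They were wider for the enzymes, with -0.09 for Idi1 (95% interval -0.83 to 0.66) and 0.00 for Sqle (95% interval -0.81 to 0.81). The data allow differences of any size within these intervals. The 15 sterol synthesis enzymes had a median log2 difference of 0.27 at rest and 0.02 at 3 h.

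Elovl5 and Abca1 had the smallest adjusted p values at 3 h. The knockout was lower in Elovl5 by a log2 value of -0.31 (SE 0.0829, edgeR adjusted p = 0.0789), in 3 of 3 samples. Its adjusted p ranged from 0.00328 to 0.314 in 13 other analyses and passed in 2, with 1 factor of unwanted variation and without replicate 1 of the 3-h knockout cells (log2 -0.33, edgeR adjusted p = 0.0393). Its change on activation differed between genotypes by -0.45 on the log2 scale (SE 0.118, edgeR adjusted p = 0.346). Abca1 was lower at 3 h by a log2 value of -0.90 (95% interval -1.47 to -0.32, edgeR adjusted p = 0.106), in 3 of 3 samples. It passed in 3 of 13 other analyses, with adjusted p from 0.00481 to 0.351, by DESeq2 (log2 -0.86, adjusted p = 0.0337), with 1 factor of unwanted variation (log2 -0.68) and without replicate 2 of the 3-h knockout cells (log2 -1.26, edgeR adjusted p = 0.0219). Without replicate 1 the log2 value was -0.63 (edgeR adjusted p = 0.351). At rest Abca1 also lay lower in 3 of 3 knockout samples, by a log2 value of -0.38 (edgeR adjusted p = 0.616), or -0.17 without replicate 2.

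Other differences between genotypes did not pass either. Dhcr7, the last enzyme of the Kandutsch-Russell branch, was at 44.9, 35.5 and 36.4 CPM in Cre-only and 32.3, 30.5 and 32.9 CPM in knockout samples at 3 h. The knockout was below the control in 3 of 3 samples (log2 -0.29, edgeR adjusted p = 0.248), while at rest the groups overlapped at 18.02, 18.7 and 16.2 CPM against 18.1, 20.8 and 16.5 CPM. Nr1h2 was at 125, 131 and 113 CPM in resting and 127, 107 and 111 CPM in 3-h knockout samples, against the Cre-only values above. The log2 difference was 0.21 at rest (edgeR adjusted p = 0.406) and 0.20 at 3 h (edgeR adjusted p = 0.295), with all 3 knockout samples higher at 3 h. Scd1 was at 1341, 1476 and 1329 CPM in resting Cre-only and 1716, 1564 and 1675 CPM in resting knockout samples, which did not overlap (log2 0.26, 95% interval 0.03 to 0.48, edgeR adjusted p = 0.356). With 1 factor of unwanted variation the resting value of Scd1 was 0.29 (edgeR adjusted p = 0.0193, in a range from 0.0193 to 0.732 over 13 other analyses), and at 3 h it was 0.00. Elovl6 was lower at rest in 3 of 3 knockout samples, at 5.32 ± 0.223 against 6.95 ± 0.638 CPM (SD, n = 3 each), with a log2 difference of -0.39 (edgeR adjusted p = 0.272). Fads2 had 5 counts over the resting knockout samples and 27 over the resting Cre-only samples, a ratio of 0.212 (exact 95% interval 0.0637 to 0.558, counting error only), with an edgeR adjusted p of 0.0763. This was the largest fitted difference and the smallest adjusted p between genotypes among the 36 genes, in a gene with few counts. At 3 h the Cre-only samples had 26, 11 and 13 counts of Fads2 and the knockout samples 10, 12 and 8, which overlapped (50 and 30 in all, ratio 0.681, exact 95% interval 0.418 to 1.09).

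The resting difference of the sterol enzymes rested on replicate 2 of the knockout cells, a sample singled out after its values were seen. In 14 of the 15 enzymes of sterol synthesis it was above all other 5 resting samples, at 1.06 to 3.69 times their median, and Tm7sf2 was the exception. Over all 36 genes it was above the others in 25 (69.4%, against 41.1% of all tested genes) and below them in 3 (8.33%, against 25.8%), namely Abca1 at 0.560, Abcg1 at 0.755 and Mylip at 0.781 of their median. Without this sample the median log2 difference of the 15 enzymes at rest was -0.16 in place of 0.27, that of Idi1 was -0.16 in place of 0.76 and that of Sqle -0.20 in place of 0.74. The median difference of the 3-h change over the 36 genes was then 0.05 in place of -0.17. On a log2 scale from the mean of resting (0%) to the mean of 3-h (100%) Cre-only samples, with a pseudocount of 0.5 CPM, this sample stood at a median of 27.4% over the 20 genes that rose over 2-fold, and at 25.6% over all 2761 tested genes that did so. The other 2 resting knockout samples stood at -3.86% and -3.44% over the 20 genes. Along the 4 genes that fell it stood at a median of 9.90%, against 3.87% over all 3342 genes that fell over 2-fold. The summed macrophage and monocyte markers were highest at rest in this sample, and their part in these values was not tested.

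**Figure D5:**
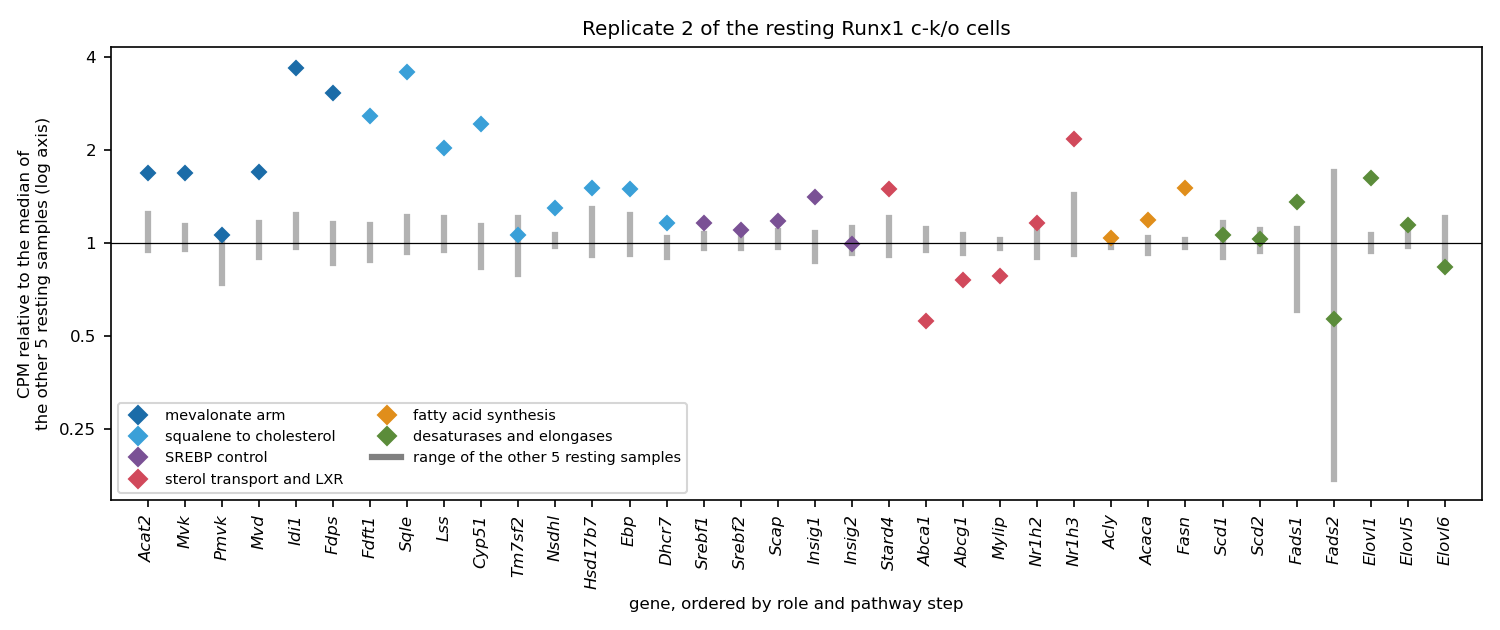
Level of each gene in replicate 2 of the resting knockout cells relative to the median of the other 5 resting samples (diamonds, log axis), with grey bars for the range of those 5. Idi1, Sqle and Fdps lie over 3 times the median, and Abca1, Abcg1 and Mylip lie under the grey bars.

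Replicate 1 of the 3-h knockout cells, also singled out after its values were seen, lay above the other 5 samples of that time in 13 of the 36 genes (36.1%) and below them in 10 (27.8%), near its shares over all tested genes. It was the highest 3-h sample for Fdps (298 CPM), Fdft1 (188 CPM), Sqle (329 CPM) and Cyp51 (565 CPM), and the lowest for Fasn (947 CPM), Acaca (188 CPM), Acly (399 CPM) and Abca1 (7.02 CPM). Without it the median log2 difference between genotypes at 3 h was -0.05 over the 15 sterol enzymes, in place of 0.02, and -0.01 over the 3 genes of fatty acid synthesis, in place of -0.18.

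Other genes of these pathways, from lists drawn up with earlier results of these data known, were examined in the same fit. Of 17 tested genes among 19 of sterol synthesis, SREBP processing and sterol handling, 9 rose (52.9%, against 38.6% of all tested genes) and 3 fell (17.6%, against 36.4%) in Cre-only cells, and 8 rose (47.1%, against 37.7%) and 4 fell (23.5%, against 36.6%) in knockout cells. Sc5d, an enzyme of the last steps of cholesterol synthesis, rose 4.90-fold in Cre-only cells, and Lipa, the lysosomal acid lipase that frees cholesterol from its esters, fell 4.26-fold. Of 16 tested genes among 20 of fatty acid synthesis, activation and elongation, 11 rose (68.8%) and 2 fell (12.5%) in each genotype. Cyb5b, a cytochrome b5, rose 3.25-fold, Acsl4, an acyl-CoA synthetase, 2.85-fold and Hacd3, a dehydratase of elongation, 2.78-fold in Cre-only cells. Of the 20 genes of fatty acid oxidation, 13 fell (65%) and 5 rose (25%) in Cre-only cells, and 13 fell and 2 rose (10%) in knockout cells. Hadh fell 4.66-fold, Cpt1a, the entry enzyme of mitochondrial oxidation, 8.26-fold and Eci2 3.14-fold in Cre-only cells. Of 10 LXR partners, corepressors and LXR-linked genes, 7 fell in each genotype (70%), among them Smpdl3a 10.6-fold, Abca7 4.27-fold and Plin2, a lipid droplet coat protein, 3.02-fold in Cre-only cells.

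Of the 63 tested genes of these lists, 2 passed between genotypes at 3 h (3.17%, near the 2.77% of all tested genes). Both calls are from the main edgeR fit, and their dependence on the fit is not given here. Slc25a20, the carnitine-acylcarnitine carrier, was at 14.1, 14.4 and 12.1 CPM in Cre-only and 22.8, 21.1 and 21.0 CPM in knockout samples, which did not overlap (log2 0.68, SE 0.138, edgeR adjusted p = 0.0209). Pltp, phospholipid transfer protein, was at 3.37, 3.33 and 2.55 CPM in Cre-only and 1.09, 1.71 and 0.589 CPM in knockout samples, all lower (log2 -1.46, SE 0.287, edgeR adjusted p = 0.0174). At rest Pltp was at 9.88, 9.91 and 8.80 CPM against 6.38, 8.34 and 6.37 CPM, also without overlap (edgeR adjusted p = 0.506).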

How the data were processed

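Splenic B cell RNA from 12 samples was sequenced as polyA-selected, stranded libraries. The authors deposited raw read counts per gene, made with TopHat2 2.0.11 and featureCounts on mm9 per the labels. The strand setting of the counting is not given in the sources used here. An ERCC spike-in was added, but all 37991 rows of the counts have mouse Ensembl identifiers, so it was not used here. Counts were analysed as deposited with edgeR 4.0.16 in R 4.3.3 (filterByExpr with a minimum count of 10, TMM scaling, robust quasi-likelihood fit of all 12 samples with 1 term per group, Benjamini-Hochberg adjustment over 13538 genes, threshold 0.05). DESeq2 1.42.0, other scalings and filters, 1 RUVs factor, the replicate block, fits of the 2 groups compared and leaving out each replicate were the alternatives. Tests were two-sided.

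The members and lists were chosen with earlier results of these data known. Values in every sample were given for the 4 genes with the smallest adjusted p in each direction on activation in Cre-only cells, for the 2 genes of each role with the smallest unadjusted p between genotypes at 3 h, and for genes called between genotypes. From each other list the 3 genes with the smallest adjusted p on activation were named, except 1 gene that is not reported here. Other genes described were chosen after their values were seen.

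Samples of one genotype with the same replicate number were compared by the correlation of their deviations from the group means. In Cre-only cells these were 0.275, 0.176 and 0.144, against -0.192 to 0.00479 for different numbers, so the numbers may pair rest and 3 h there. In Runx1 c-k/o cells they were -0.254, -0.264 and 0.254, against -0.428 to 0.477 for different numbers, and no pairing by number was seen. The labels do not give pairs, and the correlations alone cannot settle them. The main fit used no pairs, and results with the replicate block are given below. The edgeR fit was also run on simulated counts with 200 changed genes, as a check of the code only.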

Additional observations from a re-analysis of the deposited data

How the results depend on the processing

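Of the 33 genes called on activation, 30 in Cre-only and 27 in knockout cells were called under every alternative run. Ebp reversed with 1 RUVs factor, to -0.0218 in Cre-only and -0.264 in knockout cells. That factor itself differed between rest and 3 h, and the cause of the reversal was not tested. Counts between genotypes moved more, and the cause was not tested. Fits that leave samples out also hold fewer samples, and their counts moved in both directions at 3 h. At rest 202 genes passed, against 378 by DESeq2, 498 with 1 RUVs factor (1 of the 36 genes higher, Scd1) and 81 to 140 without 1 replicate. These were 86, 81 and 93 without Cre-only replicates 1, 2 and 3, and 129 and 88 without knockout replicates 1 and 3. At 3 h 375 genes passed, against 707 by DESeq2, 913 with 1 RUVs factor, 158 from the 2 groups alone and 180 to 617 without 1 replicate (180, 194 and 229 without Cre-only replicates 1, 2 and 3, and 617 without knockout replicate 3). Of the 36 genes, DESeq2 called 1 lower at 3 h, the RUVs fit 2, and the fits without 1 replicate 0 to 1. For the difference of the 3-h change 11 genes passed, against 79 by DESeq2, 151 with 1 RUVs factor (1 of the 36 genes lower, Elovl5) and 4 to 31 without 1 replicate.

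With the replicate block within genotype, 4 genes passed for the difference of the 3-h change. The block gave 9736 genes on activation in Cre-only cells, with 29 of the 36 genes higher and 4 lower, and 9601 in knockout cells, with 27 higher and 4 lower. There Ebp (edgeR adjusted p = 0.1045) and Scd1 (edgeR adjusted p = 0.0564) were not called. With the block across genotypes 140 genes passed at rest and 275 at 3 h. The block changed no other call among the 36 genes.

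Depth was limiting for Fads2, which had 5 counts in all in resting knockout cells.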
